A study of Mus musculus with 8 samples.

Results

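Chromatin loops, topologically associating domains (TADs) and CTCF peaks were examined at 10 genes of the Notch pathway or listed with it, namely Notch1, Notch2, Notch3, Jag1, Jag2, Dll1, Rbpj, Hes1, Hey1 and Herpud1, out of 21631 protein-coding genes on chromosomes 1 to 19 and X. Each gene was taken as its body in the mouse assembly GRCm38 (mm10), widened by 5 kb on each side. A loop counted when an anchor overlapped this window, a TAD when it touched the window and a CTCF peak when it lay in it. The Hi-C experiment compared lens epithelium and lens fiber cells, microdissected from the lenses of newborn CD-1 mice at P0.5, with wild type mouse ES cells. The ES cells were the v6.5 line, grown without feeders in the presence of LIF. Each of the 2 Hi-C replicates of a lens cell type pooled tissue from 30 lenses, and the authors merged both replicates before calling loops and TADs. Binding of CTCF, the zinc finger protein found at many loop anchors and domain borders, was measured by ChIP-seq in both lens cell types from 200 lenses at the same age. Each cell type therefore had 1 loop list and 1 TAD list. Each lens cell type had 1 CTCF peak list, labelled as 1 sample, where the methods of the study name 2 biological replicates. No CTCF list was analysed for ES cells. No spread between replicates could be computed from these lists and no difference between cell types was tested. The lists hold contacts and binding sites but no transcripts, so the labelled cell types were not checked against marker genes.

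Notch signalling passes between touching cells. A ligand of the Jagged or Delta-like family on the sending cell binds a Notch receptor on its neighbour, the receptor is cut, and its freed intracellular domain joins the DNA-binding protein RBPJ to switch on target genes such as Hes1 and Hey1. In the lens, JAG1 and NOTCH signalling are known for balancing the proliferating epithelium against fiber cell differentiation. Herpud1 is a membrane protein gene of the endoplasmic reticulum stress response and not a core component of the pathway. It was kept because the rule names it, and is described apart.

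The ES cell, epithelium and fiber lists held 8459, 8005 and 7682 loops, with median sizes of 220, 250 and 270 kb and median ratios of observed to expected contacts of 3.06, 3.05 and 2.83. They held 3604, 1796 and 2641 TADs. The CTCF lists held 16433 epithelium and 23868 fiber peaks, with median fold enrichments of 5.78 and 6.44. The fiber peak list was thus the longer of the pair, and its part in each count of fiber peaks below was not tested beyond an alternative with lists of equal length.

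Promoter sequences are given for Jag1, Rbpj and Notch2, whose start sites lay in loop anchors of the lens lists. Each runs 5′ to 3′ on the strand of the gene from 250 bases before to 50 bases after a RefSeq start site of GRCm38.p6. The windows are chr2:137116471-137116770 on the minus strand, chr5:53590096-53590395 on the plus strand (the first of 2 Rbpj start sites used here) and chr3:98013288-98013587 on the plus strand. Capitals mark a match to the CTCF core, searched on both strands in any of these forms: the form AGGGGGC, the form AGGTGGC, the form AGAGGGC and the form AGATGGC.
Jag1: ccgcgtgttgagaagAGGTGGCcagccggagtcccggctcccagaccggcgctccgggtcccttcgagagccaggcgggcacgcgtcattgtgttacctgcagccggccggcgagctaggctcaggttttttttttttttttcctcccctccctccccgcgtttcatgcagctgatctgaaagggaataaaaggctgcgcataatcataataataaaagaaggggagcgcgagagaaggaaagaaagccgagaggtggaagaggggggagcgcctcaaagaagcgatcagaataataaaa
Rbpj: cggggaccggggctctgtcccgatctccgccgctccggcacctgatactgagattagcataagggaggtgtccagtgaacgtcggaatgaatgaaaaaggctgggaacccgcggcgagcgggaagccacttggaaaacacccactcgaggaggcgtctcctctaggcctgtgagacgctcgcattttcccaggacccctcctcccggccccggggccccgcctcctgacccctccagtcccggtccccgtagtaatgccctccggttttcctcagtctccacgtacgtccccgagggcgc
Notch2: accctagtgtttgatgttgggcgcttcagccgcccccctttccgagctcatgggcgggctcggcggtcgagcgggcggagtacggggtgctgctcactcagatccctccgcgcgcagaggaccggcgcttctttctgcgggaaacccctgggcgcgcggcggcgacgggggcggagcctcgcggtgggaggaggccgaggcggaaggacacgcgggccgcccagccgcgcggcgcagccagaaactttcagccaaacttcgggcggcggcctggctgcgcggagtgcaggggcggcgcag

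RefSeq promoters were matched for 8 of the 10 genes, 10 promoters in all, while Hes1 and Hey1 had no entry. The CTCF core was found in 3 of the 10 promoters, those of Jag1, Notch3 and Herpud1, and in 27.6% of all 32851 promoters. In Jag1 it began 235 bases before the start site and lay outside the CTCF peaks described below. The RBPJ motif GTGGGAA, searched on both strands, was found in 0 of the 10 and in 6.38% of all promoters. GC content ran from 55.7% in Jag1 to 86% in Jag2, against a median of 52.7% over all promoters, and every promoter of the 8 genes held at least 15 CpG dinucleotides, against a median of 7.

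Loops were listed at 5 of the 10 genes in ES cells, at 8 in the epithelium list and at 6 in the fiber list. Over all protein-coding genes, 37.3% had a loop in ES cells, 36.2% in epithelium and 34.5% in fiber cells. The number of loops at the 10 genes was 7 in ES cells, 11 in epithelium and 11 in fiber cells. Per 100 kb of gene window this was 1.37, 2.15 and 2.15 loops, against 1.11, 1 and 0.952 over all genes. The gene bodies had a median length of 28.5 kb against 17.3 kb over all genes, while the windows had a mean length of 51.2 kb against 58.5 kb. Anchors were 25 kb wide in 5 of 7 loops in ES cells, in 4 of 11 in epithelium and in 2 of 11 in fiber cells. The share of 25 kb anchors over all loops of each list is not given here, so these counts may follow the whole lists. With anchors of 5 or 10 kb alone, 2 loops at 2 genes were left in ES cells. Epithelium then had 7 loops at 7 genes and fiber cells 9 loops at 5 genes. The shares of all genes with a loop at these anchor widths are not given here.

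Notch1, Jag1, Jag2 and Hey1 had a loop in a lens list and none in the ES cell list, 4 of 10 where 14.9% of all genes did so. Notch1 and Jag2 were counted through anchors in the 5 kb flank. With gene bodies not widened, 2 of the 10 genes, Jag1 and Hey1, were left beside 14.8% of all genes, and with loops of a false discovery rate below 0.01 alone Notch1 dropped out. Notch1 dropped out with 20 kb of flank too, where an ES cell anchor 7.9 kb away fell into the window. The opposite pattern, a loop in ES cells and none in either lens list, was found at 0 of the 10 genes and at 9.51% of all genes. Notch2, Rbpj and Hes1 had a loop in all 3 lists (21.3% of all genes), and Herpud1 had none in any list (47.9% of all genes). Loops of the 10 genes spanned 140 to 450 kb in ES cells, 40 to 825 kb in epithelium and 60 to 820 kb in fiber cells. Matched by both anchor midpoints within 10 kb, 6 of the 11 epithelium loops had a counterpart in the fiber list and 2 of 11 in the ES cell list. Over all epithelium loops these shares were 55.5% and 37.9%. For the fiber loops at these genes, 5 of 11 had a counterpart in the epithelium list and 2 of 11 in the ES cell list, beside 57.8% and 38.1% of all fiber loops. The sharing between both lens lists at these genes was thus near that of all loops.

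**Figure D1:**
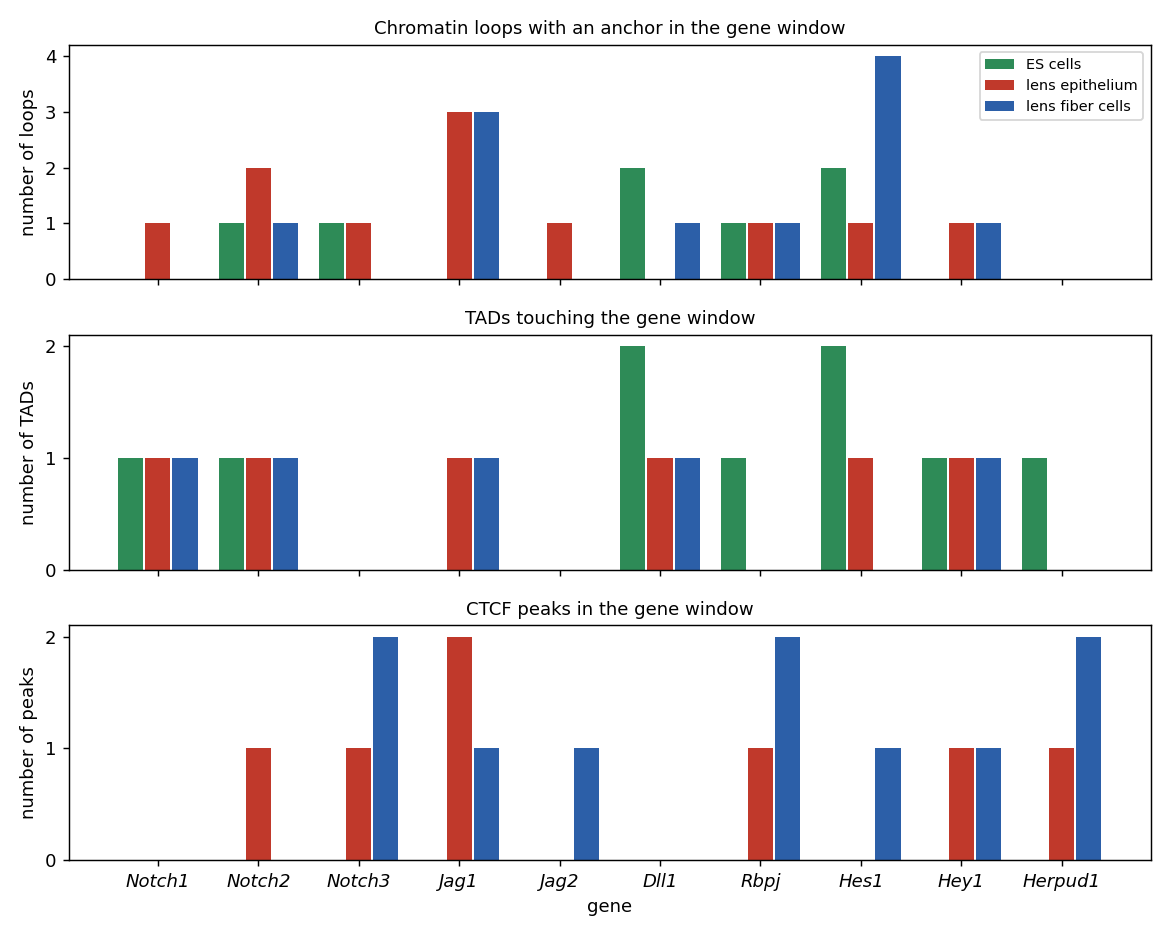
Number of loops (top), TADs (middle) and CTCF peaks (bottom) in the window of each gene, with a bar per cell type; no CTCF list was analysed for ES cells. Jag1 stands at 3 loops in each lens list and 0 in ES cells, and Hes1 reaches 4 loops in fiber cells.

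TADs touched 7 of the 10 genes in ES cells, 6 in epithelium and 5 in fiber cells, beside 43.4%, 22.8% and 31.6% of all genes. Counted as TADs, there were 9, 6 and 5. CTCF peaks lay at 6 of the 10 genes in epithelium (31.2% of all genes) and at 7 in fiber cells (45.9% of all genes), 7 and 10 peaks in all. With the fiber list cut to the length of the epithelium list, fiber cells had 5 peaks at 4 genes. The share over all genes with the cut list is not given here, and the 45.9% belongs to the full list. Jag1, Hey1, Rbpj, Herpud1 and Notch3 had a peak in both lists, 5 of 10 beside 28.2% of all genes.

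Among the receptors, Notch1 (chr2:26457902-26503822, minus strand) lay in a small domain of its own in every list. The TAD spanned 130 kb in ES cells, 120 kb in epithelium and 130 kb in fiber cells, started at the same position in each, and held no other whole protein-coding gene. A loop of 115, 120 and 115 kb closed around the gene in the 3 lists, with its nearer anchor 7.9 kb beyond the gene and so outside the window. Its ratio of observed to expected contacts was 5.44 in ES cells (115 contacts, 95% interval 4.49 to 6.53), 3.86 in epithelium (76 contacts, 3.04 to 4.83) and 4.55 in fiber cells (42 contacts, 3.28 to 6.15). These intervals overlap. All intervals given here are exact Poisson intervals for the observed contacts, take the expected value as fixed and cover counting error only. Each lens list held a CTCF peak in the anchor beyond the start site, while a peak at the other anchor was listed in fiber cells alone. Epithelium had a further loop of 40 kb from 1179 bp upstream of the Notch1 start site, with 30 contacts where 12.2 were expected (ratio 2.45, 1.66 to 3.50) and a false discovery rate of 2.4e-02. Its far anchor overlapped no gene and had Egfl7, the gene of an endothelial secreted factor, as the nearest at 31.1 kb. No CTCF peak lay in the Notch1 window or in either anchor of the 40 kb loop.

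Notch2 (chr3:98013538-98150367, plus strand), the longest of the 10 genes, had loops in all 3 lists, all reaching leftwards to Gm5544. The near anchors differed. In ES cells a 225 kb loop met the 3′ end of the gene (328 contacts, ratio 2.12, 1.90 to 2.36), and in epithelium a 175 kb loop met its interior (165 contacts, ratio 2.44, 2.08 to 2.84). A second epithelium loop of 85 kb started 1463 bp inside the gene (29 contacts, ratio 4.23, 2.84 to 6.08), and the fiber loop of 70 kb had the start site within its anchor (89 contacts, ratio 2.18, 1.75 to 2.68). The 85 kb and 70 kb loops matched each other within 25 kb but not within 10 kb. A TAD holding Gm5544 ended near the Notch2 start site in every list. Its border lay 3.54 kb before the gene in ES cells, 1.46 kb inside it in epithelium and 6.46 kb inside it in fiber cells, or at successive bins of the 5 kb maps. Epithelium had a weak CTCF peak in the gene body, 85938 bp downstream of the start site with a fold enrichment of 4.6, higher than 15.2% of epithelium peaks, and the fiber list had none.

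Notch3 (chr17:32120820-32166896, minus strand) touched no TAD in any list. Its ES cell loop of 350 kb reached Cyp4f39 (144 contacts, ratio 2.24, 1.89 to 2.64), and epithelium had a loop of 70 kb (43 contacts, ratio 2.64, 1.91 to 3.56). In fiber cells the nearest anchor was 85.8 kb away. A CTCF peak in the gene body was shared by both lens lists, with summits 17 bp apart and fold enrichments of 7.17 in epithelium and 11.2 in fiber cells, higher than 76.7% and 93.7% of the peaks of the respective list. It lay in the near anchor of the ES cell loop and in no anchor of a lens list. A fiber peak 4693 bp downstream of the start site (fold enrichment 5.76) had no epithelium counterpart.

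Jag1 (chr2:137081451-137116520, minus strand), a ligand gene with a known role in lens development, had 3 loops in epithelium, 3 in fiber cells and 0 in ES cells. At least 3 loops in each lens list and none in ES cells were found at 0.208% of all genes, 45 in number. That cut-off repeats the counts of Jag1 itself, so Jag1 meeting it was fixed in advance and is no test. The epithelium loops of 200 and 825 kb described below had 25 kb anchors, so Jag1 does not meet it with narrower anchors alone. On the left, towards Slx4ip, the loop spanned 200 kb in epithelium (132 contacts, ratio 2.43, 2.03 to 2.88) and 190 kb in fiber cells (54 contacts, ratio 3.45, 2.59 to 4.50). On the right, a loop of 620 kb in epithelium (52 contacts, ratio 4.02, 3.0 to 5.27) paired with 1 of 610 kb in fiber cells (30 contacts, ratio 4.60, 3.10 to 6.56). A longer loop of 825 kb in epithelium (90 contacts, ratio 3.02, 2.43 to 3.71) paired with 1 of 820 kb in fiber cells (30 contacts, ratio 3.68, 2.48 to 5.25). All 3 pairs matched within 10 kb. Within each pair the ratio was higher in fiber cells, but the anchors were narrower there and all 3 pairs of intervals overlap.

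The right anchors of Jag1 lay in a stretch without genes, with Btbd3 as the nearest at 307 to 527 kb. A lens TAD of 650 kb in epithelium and 635 kb in fiber cells held the right anchors of the 620 kb and 610 kb loops, ended before those of the 825 kb and 820 kb loops, and held 0 whole genes. Its border fell inside Jag1, so that 32.8% of the gene body in epithelium and 18.6% in fiber cells, the part with the start site, lay within the domain. The loops from the far left anchor to the right anchors were listed too. The shorter, of 825 kb, was called at the same pair of bins in both lens lists, with 95 contacts in epithelium (ratio 2.47, 1.99 to 3.01) and 139 in fiber cells (ratio 2.56, 2.16 to 3.03). The start site lay within the near anchor of 5 of the 6 Jag1 loops. In the ES cell list the nearest anchor was 481 kb and the nearest TAD 626 kb from the gene.

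**Figure D2:**
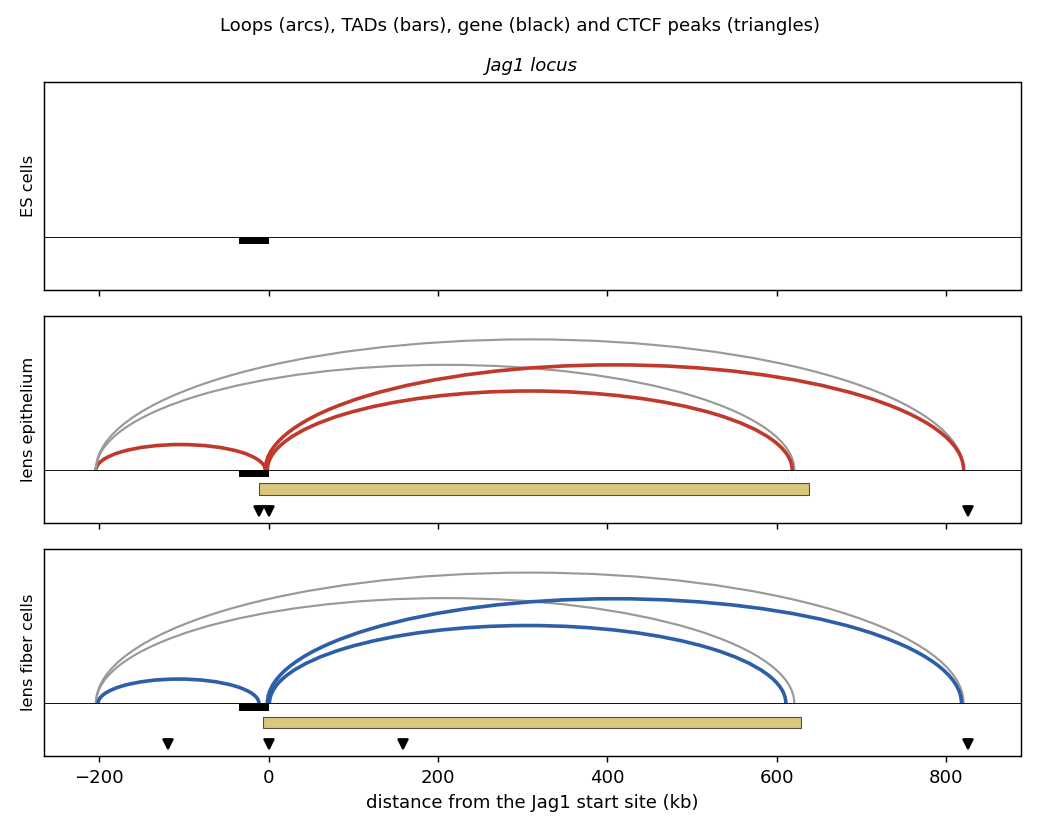
Loops with both anchors in the frame (arcs, coloured when an anchor lies in the Jag1 window and grey otherwise), TADs (bars), the gene body (black) and CTCF peak summits (triangles) in the rows for ES cells (top), epithelium (middle) and fiber cells (bottom), against distance in kb from the Jag1 start site towards higher coordinates. Both lens rows show 3 coloured loops and a TAD that begins in the gene, while the ES cell row shows none; CTCF was not analysed in ES cells.

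A CTCF peak stood 1025 bp upstream of the Jag1 start site in epithelium and 1017 bp upstream in fiber cells. Its fold enrichment was 4.81 in epithelium, higher than 20.3% of epithelium peaks, and 8.51 in fiber cells, higher than 77.5% of fiber peaks. The peak lay inside loop anchors of both lens lists. Epithelium had a further peak 11831 bp downstream of the start site, with a fold enrichment of 4.76. The far anchor of the 825 kb epithelium loop at Jag1 held a CTCF peak in each lens list, with fold enrichments of 6.3 and 9.51, and the far anchors of the other 5 loops held none.

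Jag2 (chr12:112907803-112929812, minus strand), the other Jagged ligand gene, had an epithelium loop of 60 kb (69 contacts, ratio 3.05, 2.37 to 3.85). Its anchor began 189 bp beyond the gene and 506 bp from the start site, and the far anchor had Gpr132 as its nearest gene at 1.58 kb. A fiber loop of 70 kb shared the far anchor (82 contacts, ratio 2.08, 1.66 to 2.59) and matched the epithelium loop within 10 kb, but its near anchor was 10.2 kb from Jag2. The fiber count of 0 at Jag2 therefore rests on the width of the window. In ES cells the nearest anchor was 57.8 kb away. A fiber CTCF peak 648 bp upstream of the start site (fold enrichment 4.89) lay in the epithelium anchor, and the epithelium list had no peak there. No TAD touched Jag2.

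Dll1 (chr17:15367354-15376932, minus strand), the Delta-like ligand gene, had 2 loops in ES cells, 0 in epithelium and 1 in fiber cells. The ES cell list held a 450 kb loop to Wdr27, 1600012H06Rik and Phf10 (45 contacts, ratio 2.45, 1.79 to 3.28) and a 325 kb loop to Ermard (445 contacts, ratio 2.84, 2.58 to 3.12), both with the 2 start sites of Dll1 in the near anchor. Fiber cells had a 175 kb loop whose anchor ended 823 bp short of a start site (264 contacts, ratio 2.04, 1.80 to 2.30). In epithelium the nearest anchor was 423 kb away. A TAD of 410 kb in ES cells and 415 kb in both lens lists held Dll1 and Fam120b. ES cells had a further TAD of 85 kb that began 3.07 kb from the gene. A loop of 400 kb at the same bins closed around the gene in ES cells (538 contacts, ratio 5.38, 4.94 to 5.86) and in fiber cells (291 contacts, ratio 3.06, 2.72 to 3.44). These intervals did not overlap, but they cover counting error only and no spread between replicates, and the difference was not tested. The epithelium list had no counterpart of this 400 kb loop, and the smallest epithelium loop around Dll1 spanned 7100 kb. No CTCF peak lay at Dll1, the nearest being 90.8 kb away in epithelium and 43.2 kb in fiber cells.

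Rbpj (chr5:53555779-53657445, plus strand), which encodes the DNA-binding partner of the Notch intracellular domain, had the same loop in all 3 lists. It joined the region of the 2 start sites used here to a point 71.5 to 76.5 kb from Smim20, the nearest gene. The annotated gene body begins 34.6 kb before the first of these start sites, outside both anchors of the loop. The loop spanned 235 kb in ES cells with 5 kb anchors (37 contacts, ratio 4.71, 3.32 to 6.49). In both lens lists it spanned 240 kb and was called at the same pair of 10 kb bins, with 64 contacts in epithelium (ratio 3.65, 2.81 to 4.66) and 63 in fiber cells (ratio 3.19, 2.45 to 4.08). The lens intervals overlap. Fiber cells had a CTCF peak 4060 bp downstream of the nearer start site and a peak in the far anchor, both weak, with fold enrichments of 4.43 and 3.98. The epithelium list had a peak in neither anchor. A peak beyond the 3′ end of Rbpj was shared, at 4.93 in epithelium and 4.54 in fiber cells, and lay in no anchor. An ES cell TAD of 105 kb covered 14% of the gene body, and the nearest lens TADs were 911 kb away in epithelium and 326 kb in fiber cells.

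Hes1 (chr16:30065357-30067796), a target gene and itself a repressor of differentiation genes, had 2 loops in ES cells, 1 in epithelium and 4 in fiber cells. At least 4 fiber loops were found at 1.78% of all genes, 384 in number. That cut-off is the fiber count of Hes1 itself, so Hes1 meeting it was fixed in advance and is no test. Its 120 kb fiber loop, described below, had a false discovery rate of 1.0e-02 and dropped out with rates below 0.01 alone. A loop of 335 kb to the left was called at the same 5 kb bins in both lens lists, with 30 contacts in each (ratio 6.17, 4.16 to 8.80 in epithelium and 4.69, 3.16 to 6.69 in fiber cells). The ES cell loop of 325 kb matched it within 10 kb at 25 kb anchors (307 contacts, ratio 2.03, 1.81 to 2.27). This leftward loop was thus listed in all 3 cell types. On the right, ES cells had a loop of 140 kb (42 contacts, ratio 3.31, 2.39 to 4.48) and fiber cells 1 of 120 kb (66 contacts, ratio 2.09, 1.61 to 2.66), matched within 25 kb. The other fiber loops spanned 425 kb, to Opa1 (ratio 2.28, 1.91 to 2.70), and 60 kb (ratio 2.02, 1.57 to 2.56), and had no counterpart in the other lists.

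Hes1 lay at domain borders. In ES cells a TAD of 350 kb ended 357 bp before the gene and another of 140 kb began 2.21 kb beyond it, so the gene stood in the gap between them. The epithelium list held the 350 kb TAD with the same ends. In fiber cells the nearest TAD was 7.21 kb away. A fiber CTCF peak in the gene body (fold enrichment 4.52, higher than 9.6% of fiber peaks) lay in anchors of all 3 lists, and the nearest epithelium peak was 169 kb away.

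Hey1 (chr3:8663359-8667038), the other target gene, a relative of the Hes repressors, had 1 loop in each lens list and none in ES cells. It spanned 250 kb in epithelium (141 contacts, ratio 2.80, 2.36 to 3.30), to Mrps28, and 260 kb in fiber cells (45 contacts, ratio 2.52, 1.84 to 3.37), to Mrps28 and Tpd52. The pair matched within 25 kb but not within 10 kb. The domain itself was listed in all 3 cell types, as a TAD of 325 kb in ES cells and 330 kb in both lens lists that held the gene. A loop of 320, 330 and 330 kb closed around it, with ratios of 5.67 in ES cells (18 contacts, 3.36 to 8.95), 4.33 in epithelium (45 contacts, 3.16 to 5.79) and 2.85 in fiber cells (43 contacts, 2.06 to 3.83). The lens loops were called at the same bins, and the ES cell loop did not match them within 10 kb. In ES cells the nearest anchor was 63.4 kb from Hey1.

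**Figure D3:**
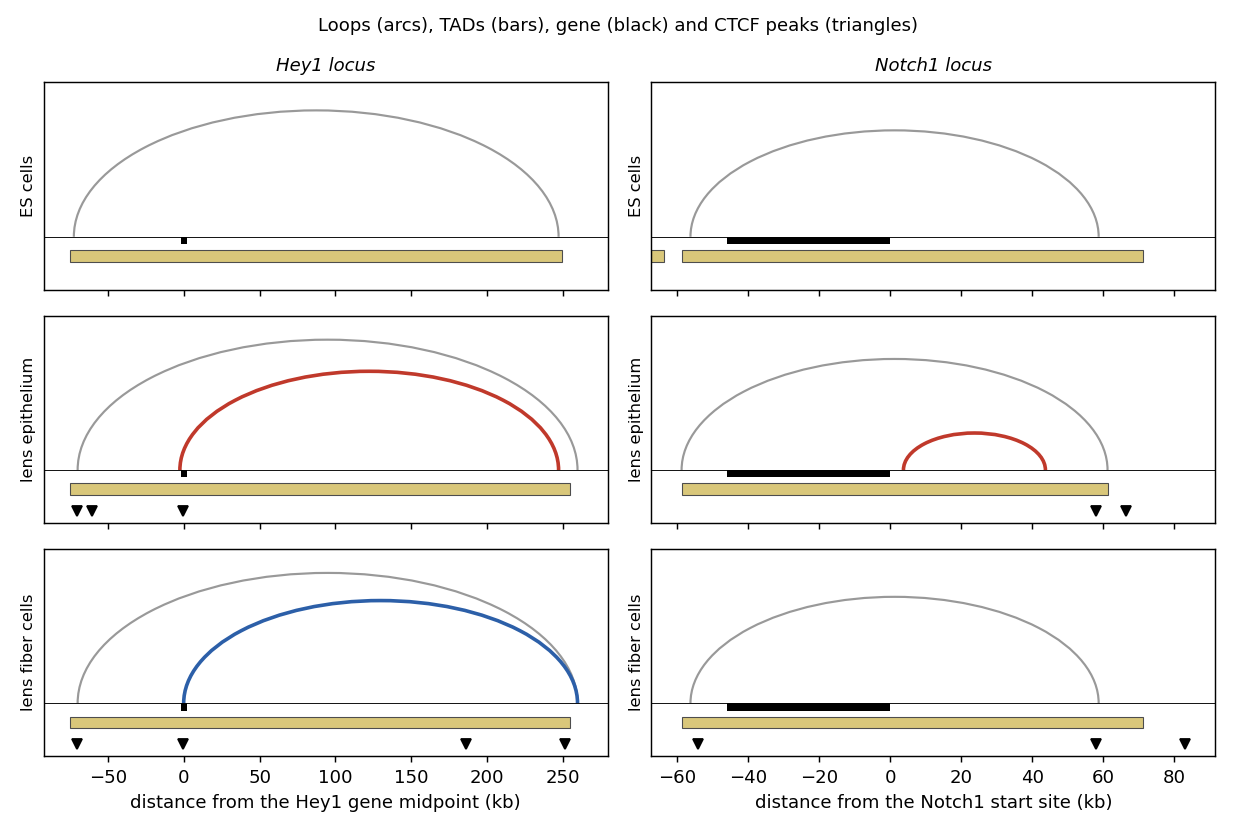
Hey1 (left) and Notch1 (right) in ES cells (top), epithelium (middle) and fiber cells (bottom), with loops (arcs, coloured when an anchor lies in the gene window), TADs (bars), gene bodies (black) and CTCF peak summits (triangles) against distance in kb from the Hey1 midpoint or the Notch1 start site. An enclosing loop and a TAD appear in every row (at Hey1 the ES cell loop, of 320 kb, does not match the lens loops of 330 kb within 10 kb), while the inner loops appear in both lens rows at Hey1 and in epithelium alone at Notch1; CTCF was not analysed in ES cells.

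The Hey1 gene body held the strongest CTCF peak among the 10 genes in either lens list. Its fold enrichment was 11.8 in epithelium, higher than 99% of epithelium peaks, and 15.8 in fiber cells, higher than 99.6% of fiber peaks, with summits 11 bp apart. It lay in the near anchor of the Hey1 loop of both lens lists. The far anchor of the epithelium loop held a fiber peak and no epithelium peak, and that of the fiber loop held neither.

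Herpud1 (chr8:94386429-94395371, plus strand) had no loop in its window, and the nearest anchor was 51.4 kb away in every list. A loop of 160 kb in ES cells and 155 kb in both lens lists closed around it, with ratios of 3.24 (56 contacts, 2.45 to 4.21), 4.73 (22 contacts, 2.97 to 7.16) and 4.37 (24 contacts, 2.80 to 6.50). An ES cell TAD of 160 kb held Herpud1 and Slc12a3, and no lens TAD lay within 315 kb. A CTCF peak in the gene body was shared at 5.27 in epithelium and 6.5 in fiber cells, and a fiber peak beyond the 3′ end had a fold enrichment of 6.36.

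Over the 10 genes, 5 of the 7 epithelium peaks and 5 of the 10 fiber peaks overlapped a peak of the other list, beside 72.8% of all epithelium peaks and 50.1% of all fiber peaks. These counts were near the shares over all peaks. The shared peak was the higher one in fiber cells at Notch3, Jag1, Hey1 and Herpud1, and at Rbpj it was the higher one in epithelium. The lists were scaled separately, so these fold enrichments describe each list and not a tested difference. A peak of the same cell type at both anchors was found for 1 of the 11 epithelium loops, at Jag1, beside 15.7% of all epithelium loops, and for 4 of the 11 fiber loops beside 39.1% of all fiber loops. The 4 were 3 Hes1 loops and the Rbpj loop.

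**Figure D4:**
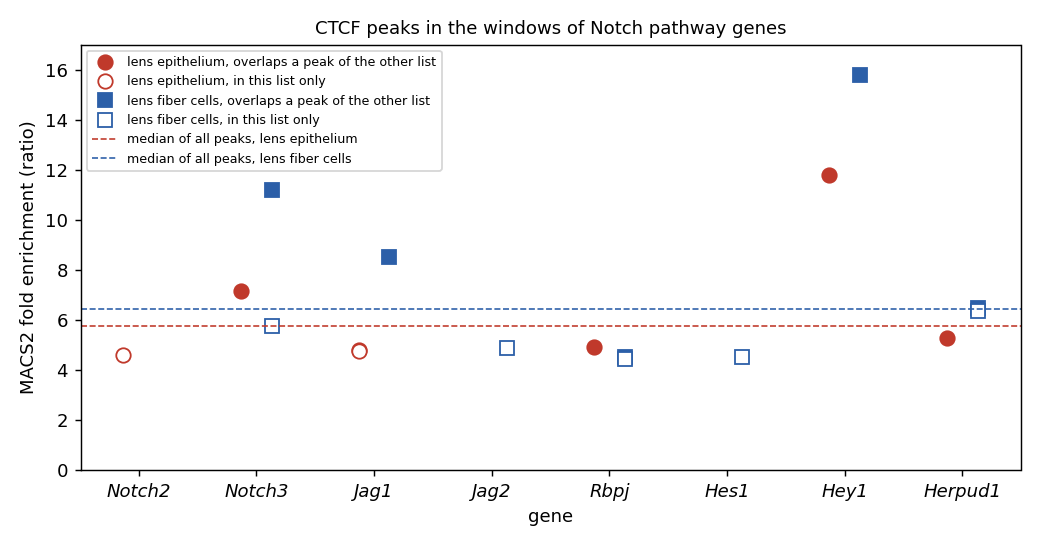
MACS2 fold enrichment (vertical axis, a ratio) of each CTCF peak in the windows of 8 genes, with circles for lens epithelium and squares for lens fiber cells, filled where the peak overlaps a peak of the other list; dashed lines mark the median of all peaks in each list. The Hey1 peak, at 11.8 and 15.8, stands above all others, and every unfilled symbol lies below the median of its list; Notch1 and Dll1 had no peak.

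A wider list of 42 other Notch pathway genes was read by the same rule. Gene lengths of this list are not given here, and its counts and shares were not scaled by length. Loops were listed at 20 of the 42 genes in ES cells, at 21 in epithelium and at 19 in fiber cells, or 47.6%, 50% and 45.2%. Over all genes the shares were 37.3%, 36.2% and 34.5%. A lens loop and none in ES cells was found at 11 of the 42, an ES cell loop and none in lens at 5, and no loop at 11. These were 26.2%, 11.9% and 26.2%, beside 14.9%, 9.51% and 47.9% of all genes. TADs touched 29, 13 and 20 of them, or 69%, 31% and 47.6%, beside 43.4%, 22.8% and 31.6% of all genes. CTCF peaks lay at 16 in epithelium and 23 in fiber cells, or 38.1% and 54.8%, beside 31.2% and 45.9% of all genes. The most loops over the 3 lists were at Dner, an atypical Notch ligand gene, with 3 in ES cells, 4 in epithelium and 4 in fiber cells. Psen2, a presenilin of the gamma-secretase that cuts the receptor, and Furin, the protease that cleaves it during maturation, followed with 8 loops each. Fbxw7, a ubiquitin ligase subunit that marks the intracellular domain for degradation, and Maml3, a co-activator of RBPJ, had 6 each. The most CTCF peaks lay at Dtx4, a Deltex family gene, with 3 in epithelium and 5 in fiber cells, followed by Dner, Maml2 and Psen2 with 5 each over both lists and by Dll3, which tied with Fbxw7 at 4 and comes first by symbol.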

How the data were processed

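Per the file headers and the methods of the study, Hi-C reads were aligned with BWA to mm10 and built into Juicer contact maps at 5 kb resolution with a mapping quality of at least 30. The authors merged 2 Hi-C replicates per cell type, called loops with HiCCUPS (juicer_tools 2.13.06) and TADs with Arrowhead, and called CTCF peaks with MACS2. The deposited loop lists give observed contact counts, the expected contacts of the surrounding donut, used here as a score, and a false discovery rate, read as a p-value type column. The deposited peak lists give a fold enrichment (a ratio) and the −log10 q-value. Replicate contact totals were not used here, so the depth behind each list is not given.

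From these lists, loops, TADs and peaks were assigned to genes of the GRCm38.p6 RefSeq table in Python 3.11.15 (pandas 2.3.3, scipy 1.17.1). Loops with both anchor midpoints within 10 kb, and peaks overlapping by at least 1 bp, were counted as shared. The code was tested on constructed lists with known answers and recovered them. All 10 genes were named, with the 5 genes of the wider list that had the most loops or peaks (ties by symbol) and the genes at far anchors, except 1 that is not reported here. Members and lists were chosen with earlier results of these data known. Loops closing around a gene were added after the data were seen. They are described for some of the 10 genes only, and the share of all genes with such a loop is not given here. The effect of 14 alternatives is given in the closing section.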

Additional observations from a re-analysis of the deposited data

How the results depend on the processing

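Of 113 values recomputed under 14 alternatives, 86 stayed within 1.5 times the reported value and 27 did not. No value moved that far with a loop false discovery rate below 0.01, or with loops matched within 25 kb or by overlap of both anchors. A CTCF −log10 q above 3 and CTCF summits matched within 100 bp could not change any value. Every peak at the 10 genes had a −log10 q of at least 3.75, and the summits of shared peaks lay at most 90 bp apart. The values of both settings are among the 86. With gene bodies not widened, 5 ES cell TADs, 6 fiber peaks and 2 genes with a loop in lens but not ES cells were left, and with 20 kb of flank the ES cell loops rose to 11. Anchors placed by their midpoint left 4 ES cell loops at 3 genes. With anchors of 5 or 10 kb alone, ES cells had 2 loops at 2 genes and epithelium 7 loops, shared loops between ES cells and either lens list fell to 1 each, and 3 fiber loops had an epithelium counterpart. With loop lists of equal size, shared loops between ES cells and either lens list were again 1 each way. The genes with a loop in lens but not ES cells were counted under the loop alternatives after the data were seen. They numbered 3 with 20 kb of flank (14% of all genes) and 3 with the lower false discovery rate (15% of all genes). With the narrow anchors they numbered 6 (9.86% of all genes), and with lists of equal size 5 (16.1% of all genes). With CTCF lists of equal size, fiber cells had 5 peaks at 4 genes, with no share over all genes given for that setting. TADs that held the whole gene numbered 4 in ES cells, 3 in epithelium and 3 in fiber cells, and TADs of at least 200 kb numbered 3 in ES cells and 3 in fiber cells. With anchors widened by 5 kb, 3 epithelium and 7 fiber loops had a peak of their cell type at both anchors. The shares over all loops with widened anchors are not given here, and the shares given above belong to anchors not widened. The cause of these shifts beyond the change of rule itself was not tested.

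No paired analysis was possible because the Hi-C replicates were merged into 1 list per cell type and each CTCF list was labelled as 1 sample. For the same reason no replicate was left out. A loop missing from a list says that HiCCUPS did not call it there, not that the contact was absent.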
